A study of Mus musculus with 6 samples.

Results

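The platelet-derived growth factor (PDGF) ligands and receptors were examined in cultured mouse CAFs (cancer-associated fibroblasts, the activated stromal cells of a tumour). The set held 7 genes chosen by symbol, Pdgfa, Pdgfb, Pdgfc, Pdgfd, Pdgfra, Pdgfrb and Pdgfrl, out of 55401 in the deposited table. CAFs came from rectal tumours grown from implanted mouse tumour organoids in host mice that were either wild type (WT) or Thbs2KO, lacking thrombospondin-2, a secreted matricellular glycoprotein. RNA-seq was carried out on 3 WT and 3 Thbs2KO libraries. In both groups the cells had been cultured on fibronectin in medium with serum before RNA was taken, and serum itself carries PDGF. The knockout is described for the host mouse and not for fibroblasts alone, and the labels used here give no strain, age or organoid genotype for either group. Nor do they say if each replicate is its own mouse or its own culture. The p-values therefore cover the spread among these 6 libraries alone, and part of it may be technical.

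PDGFs are secreted dimers that drive proliferation and migration of mesenchymal cells through a pair of receptor tyrosine kinases, PDGFRα and PDGFRβ. PDGF-A and PDGF-C act mainly through PDGFRα, PDGF-D through PDGFRβ, and PDGF-B through either. Fibroblasts of many organs, the gut included, carry both receptors, and pericytes are known for PDGFRβ. Pdgfrl encodes a secreted receptor-like protein without a kinase domain.

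Total expected counts were 19649066 to 24417464 per library. As a check of the genotype, Thbs2 fell from 3399 ± 957 to 458.3 ± 69.5 CPM (read counts scaled to the library total with TMM factors; mean ± SD, n = 3), 13.5% of the WT level and a log2 fold change of -2.89 (edgeR quasi-likelihood test with Benjamini-Hochberg adjustment, adjusted p = 0.00521). Markers of fibroblasts, 9 genes such as Col1a1 and Thy1, summed to 24251 to 29977 CPM over the 6 libraries. Most of that sum was Col1a1 and Col1a2, and other markers were less even. In Thbs2KO replicate 3 Dcn, Lum and Dpt were highest, at 1004, 51.3 and 49.8 CPM. The other libraries had 199 to 352, 5.08 to 9.10 and 3.55 to 16.2 CPM. Vim was lowest in Thbs2KO replicate 3, at 1501 CPM against 1995 to 2773 CPM. Of 9 epithelial markers 3 were under 1 CPM in every library, and the list summed to 19.8 to 26.4 CPM in WT and 7.19 to 9.53 CPM in Thbs2KO. Krt19 was the largest part of that sum, with means of 12.7 CPM in WT and 5.18 CPM in Thbs2KO. The 6 tested epithelial markers all had negative log2 fold changes and edgeR called 0 of them, and for Epcam and Cdh1 the groups overlapped. Of 8 leukocyte markers 4 were under 1 CPM in every library, the pan-leukocyte gene Ptprc among them, and of 8 endothelial markers 5 were, Pecam1 and Cdh5 among them. The endothelial list summed to 15.1 to 35.5 CPM in WT and 35.9 to 54.6 CPM in Thbs2KO. Most of the difference was in Kdr, a VEGF receptor gene (2.497, 26.3 and 10.6 against 45.0, 28.04 and 21.5 CPM). Egfl7 was also higher in Thbs2KO, at 3.27 to 3.52 CPM in WT and 3.76 to 4.45 CPM in Thbs2KO. The log2 fold changes of Egfl7 and Tek were 0.26 and -0.01, and edgeR called 0 of the 3 tested endothelial markers. WT replicate 1 and Thbs2KO replicate 3 stood apart from the other libraries on the second principal component (27.9% of the variance), and of all pairs of libraries Thbs2KO replicates 1 and 2 differed least.

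Of the 7 genes, 6 had enough reads for the test and Pdgfb did not. By edgeR 0 of the 6 changed (Benjamini-Hochberg adjusted p from 0.172 to 0.993), against 1.09% of all 13590 tested genes. At an unadjusted edgeR p under 0.05 there was 1, Pdgfra, against 13.3% of tested genes. Likewise 1 of the 6, again Pdgfra, had groups that do not overlap, against 19.7% of tested genes. DESeq2 called 1, Pdgfra, where it called 5.15% of all genes, and limma-voom called 0, against 1.08%. The median log2 fold change of the 6 genes was 0.04, beside -0.00377 over all tested genes.

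Pdgfra, the receptor gene for PDGF-A and PDGF-C signalling, was the member that differed most between the genotypes. It measured 751, 556 and 388 CPM in WT replicates 1, 2 and 3. In Thbs2KO replicates 1, 2 and 3 it measured 1013, 947 and 1527 CPM. Every Thbs2KO library lay above every WT library, with WT replicate 1 the nearest of the WT libraries and Thbs2KO replicate 3 the farthest from them. The mean was 565 ± 181 CPM in WT and 1162 ± 317 CPM in Thbs2KO (SD, n = 3), 2.06-fold higher, and the log2 fold change was 1.04 (SE 0.283; edgeR, Benjamini-Hochberg adjusted p = 0.172; unadjusted p = 0.00878). A two-sided exact permutation test gave p = 0.1, which is the least that 3 libraries against 3 can reach. Pdgfra was thus not called by edgeR or limma-voom (adjusted p = 0.161), while DESeq2 called it with nearly the same log2 fold change of 1.05 (DESeq2 adjusted p = 0.00507).

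The log2 fold change of Pdgfra stayed positive in each of the 16 alternatives, between 0.80 without Thbs2KO replicate 3 and 1.30 without WT replicate 1 (edgeR, Benjamini-Hochberg adjusted p = 0.289 and 0.0743). Without both WT replicate 1 and Thbs2KO replicate 3, which leaves Thbs2KO with its most alike pair, it was 1.05 (edgeR, Benjamini-Hochberg adjusted p = 0.0707). In tissue or culture RNA, a difference in the share of Pdgfra-expressing cells and a difference in RNA per cell cannot be told apart. The summed level of 13 pericyte and smooth muscle markers, among them the smooth muscle actin gene Acta2, was lower in Thbs2KO on average, at 2705, 5774 and 5921 CPM in WT and 2265, 2601 and 2705 CPM in Thbs2KO, so that WT replicate 1 stood level with Thbs2KO replicate 3. Most of that sum was Acta2, at 2289 to 4868 CPM in WT and 1832 to 2267 CPM in Thbs2KO. Within Thbs2KO both the sum and Pdgfra were highest in replicate 3. Within WT the order was opposite: Pdgfra was highest in replicate 1, where the sum was lowest, and lowest in replicate 3, where the sum was highest. The pericyte genes Cspg4, Des and Abcc9 had log2 fold changes of 0.36, 0.05 and 0.02. Those of Mcam, Kcnj8 and Notch3, other pericyte genes of the list, were -1.21, -0.35 and -0.18. None of that list's 11 tested members was called by edgeR, 6 had lower levels with an unadjusted p under 0.05, and the median log2 fold change was -0.91. The pericyte genes Rgs5 and Higd1b were under 1 CPM in every library. The part of that list, and of the epithelial and endothelial lists above, in the Pdgfra difference was not tested.

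**Figure D1:**
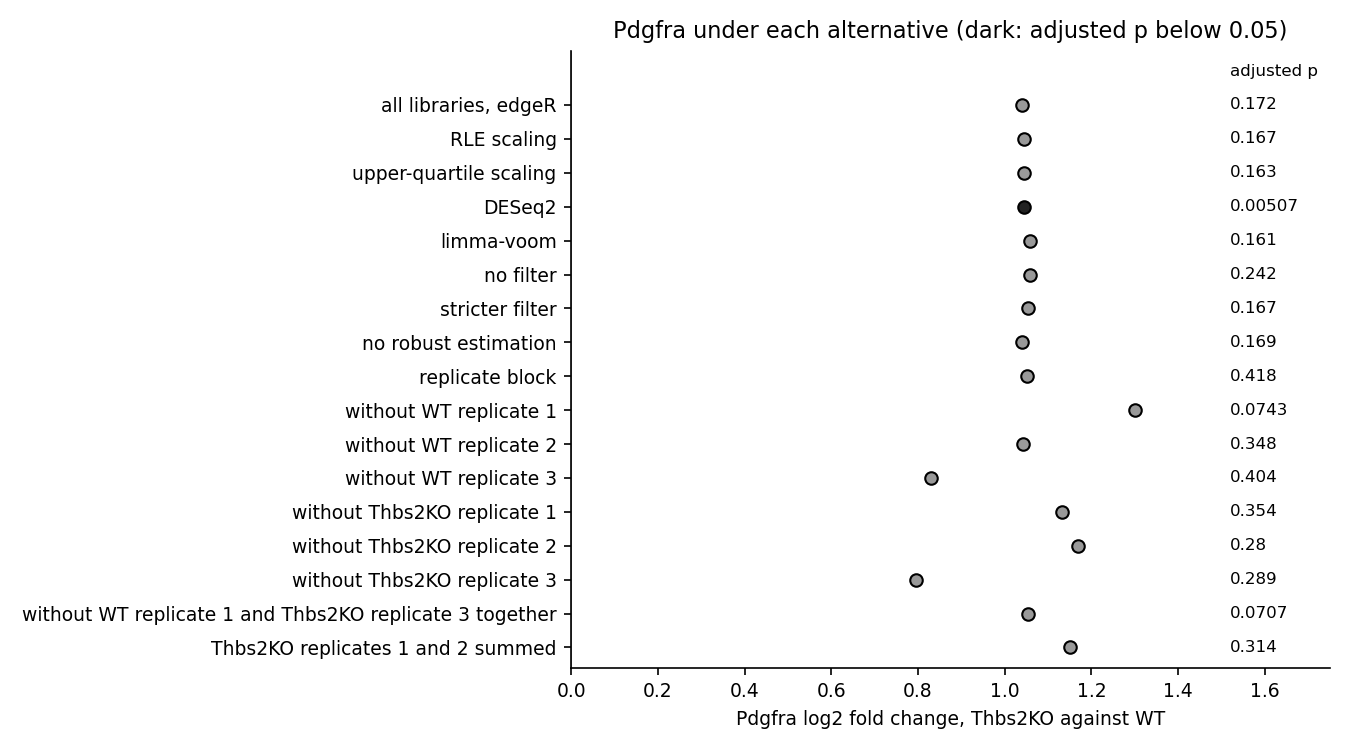
Log2 fold change of Pdgfra (x axis, Thbs2KO against WT) under each processing alternative (y axis), with the Benjamini-Hochberg adjusted p at the right; filled dark where it is below 0.05. The points lie between 0.80 and 1.30, and DESeq2 gives the only adjusted p below 0.05.

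Pdgfra (ENSMUSG00000029231.15) lies on chromosome 5, 75152292 to 75198215, plus strand (GRCm38, the build named mm10 in the submitters' processing notes). Other annotated genes share 652 of its 10024 exon bases, and the library kit does not mark strand, so reads there cannot be assigned to a strand. Gm42802 and Gm42803, on the opposite strand, had 8 and 9 reads over the 6 libraries against 111371 for Pdgfra. The promoter windows below, 300 bases around the annotated start, are shown for Pdgfra, as the member that differed most, and for Pdgfa, the ligand gene on the same chromosome. Windows from RefSeq tables (GRCm38.p6) were examined for 4 members, Pdgfa, Pdgfc, Pdgfd and Pdgfra. Windows of the other members were not examined. Both strands were searched for TTGCNNAA (C/EBP-type), GGGCGG (GC box of the Sp1 type), TATAAA (core promoter element), TGANTCA (AP-1) and GGAATG (TEAD), none of which overlaps another in the printed windows, and capitals mark the matches.
Pdgfra, chr5:75152001-75152300, plus strand: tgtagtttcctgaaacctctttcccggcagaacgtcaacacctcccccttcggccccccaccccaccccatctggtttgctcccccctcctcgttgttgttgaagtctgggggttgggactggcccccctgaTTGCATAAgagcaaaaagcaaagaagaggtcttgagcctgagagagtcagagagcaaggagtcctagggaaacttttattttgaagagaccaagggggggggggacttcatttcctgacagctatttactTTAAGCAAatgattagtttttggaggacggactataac
Pdgfa, chr5:138994895-138995194, minus strand: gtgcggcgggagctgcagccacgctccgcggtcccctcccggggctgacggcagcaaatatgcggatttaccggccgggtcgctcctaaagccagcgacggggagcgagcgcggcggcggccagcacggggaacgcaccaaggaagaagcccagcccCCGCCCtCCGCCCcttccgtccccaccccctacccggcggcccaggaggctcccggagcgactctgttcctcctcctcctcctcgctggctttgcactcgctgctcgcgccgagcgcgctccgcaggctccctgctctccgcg
The Pdgfra window was 51% G and C with 5 CpG dinucleotides, beside medians of 52.7% and 7 over 32841 promoters. It held TTGCNNAA at 2 places, starting 118 bases before and 12 bases after the start, a motif present in 10.8% of all promoters. The printed Pdgfa window, GC-rich at 73.3% with 37 CpG dinucleotides, held GGGCGG at 2 places on the opposite strand, starting 93 and 86 bases before the start, a motif found in 35.7% of all promoters. A second annotated Pdgfa window, chr5:138994232-138994531, was 67% G and C with 24 CpG dinucleotides and held GGGCGG at 1 place, 60 bases before its start. Pdgfc held GGAATG at 2 places (14.7% of promoters) and Pdgfd held TATAAA at 1 (13.6%), and TGANTCA (7.81%) was not in any of these windows. These matches describe the letters in the windows only.

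Pdgfrb (ENSMUSG00000024620.11, chromosome 18, 61045150 to 61085061, plus strand), the receptor gene for PDGF-D and the usual pericyte and fibroblast marker, varied little. Its levels were 849.8, 760.3 and 641 CPM in WT. In Thbs2KO they were 764, 737 and 872 CPM, so the groups overlapped throughout. The means were 751 ± 105 CPM and 791 ± 71.6 CPM, with a log2 fold change of 0.08 (SE 0.127; edgeR, Benjamini-Hochberg adjusted p = 0.877). The interval of 2 standard errors on either side ran from -0.18 to 0.33 on the log2 scale, which leaves out a change of the size measured for Pdgfra.

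Levels of different genes were compared only per length, as CPM per kilobase of annotated exon. On that scale Pdgfrb stood above Pdgfra in each of the 6 libraries, at 117 to 159 against 38.7 to 152 CPM per kb. Of the summed receptor level, Pdgfra made up 32.6%, 28.6% and 24.8% in the WT libraries and 42.0%, 41.2% and 48.9% in the Thbs2KO libraries. The groups did not overlap, and the Pdgfra share was 28.7 ± 3.85% in WT and 44.1 ± 4.21% in Thbs2KO (SD, n = 3), a difference of 15.4 percentage points. In terms of the ratio, Pdgfra stood at 0.404 ± 0.0761 of the Pdgfrb level in WT and 0.794 ± 0.141 in Thbs2KO. This shift restates the Pdgfra difference beside a steady Pdgfrb and is not separate evidence for it.

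**Figure D2:**
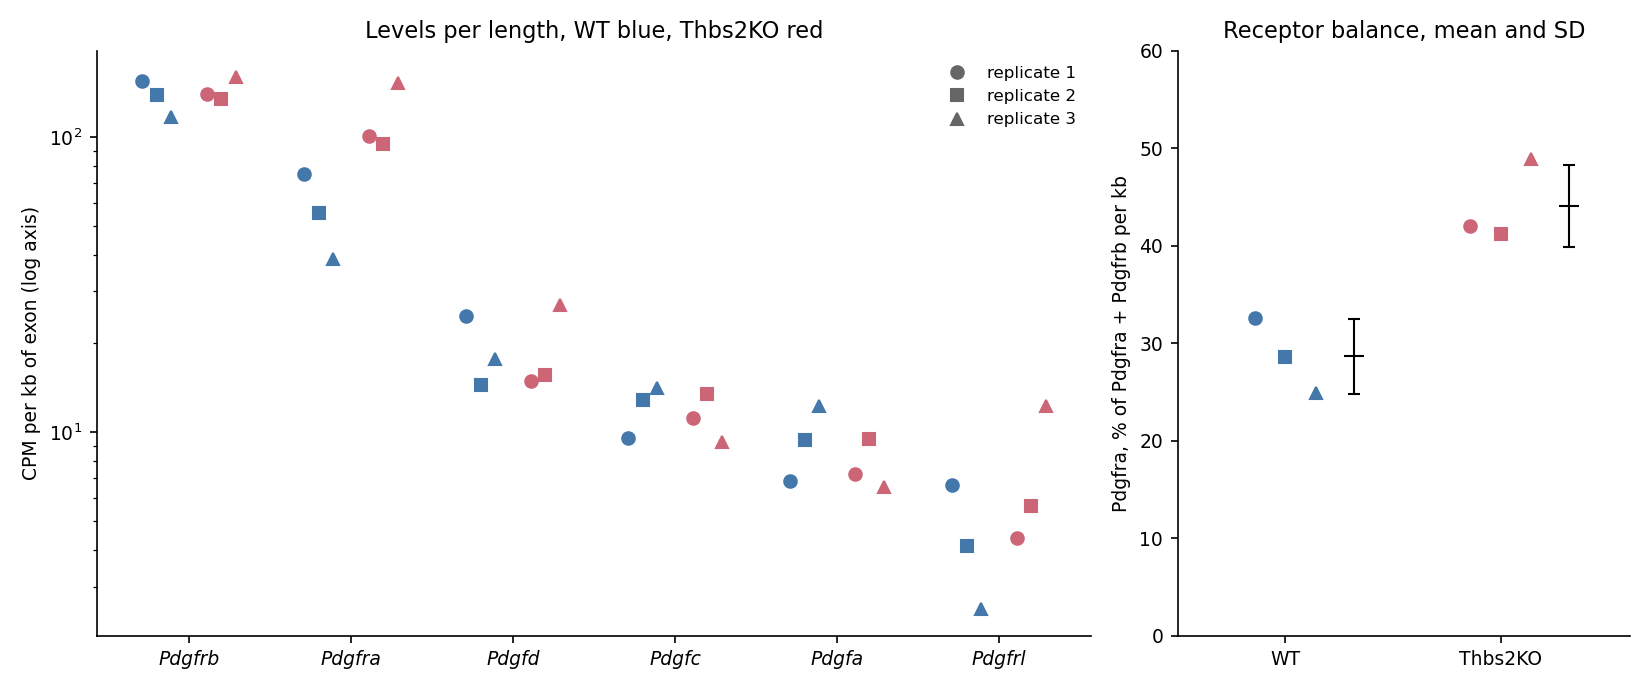
Left, level of each member per length (CPM per kb of exon, log axis) in WT (blue) and Thbs2KO (red) libraries, Pdgfb left out for its low count; right, Pdgfra as a percentage of Pdgfra plus Pdgfrb per kb, with mean and SD beside the 3 points of each group. Pdgfrb and Pdgfra lie above the other members in each library, and the Pdgfra share is 24.8% to 32.6% in WT and 41.2% to 48.9% in Thbs2KO.

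Pdgfrl (ENSMUSG00000031595.9, chromosome 8, 40926212 to 40990785, plus strand), the kinase-less relative, was low and the most variable of the tested members. It measured 20.8, 12.9 and 7.88 CPM in the WT libraries. The Thbs2KO libraries had 13.7, 17.6 and 38.3 CPM, and the groups overlapped, because Thbs2KO replicate 3 alone stood above WT replicate 1. Means were 13.9 ± 6.51 and 23.2 ± 13.2 CPM, and the log2 fold change was 0.74 (SE 0.480; edgeR, Benjamini-Hochberg adjusted p = 0.603). Without Thbs2KO replicate 3 the log2 fold change of Pdgfrl was 0.18, and without WT replicate 1 it was 1.16.

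**Figure D3:**
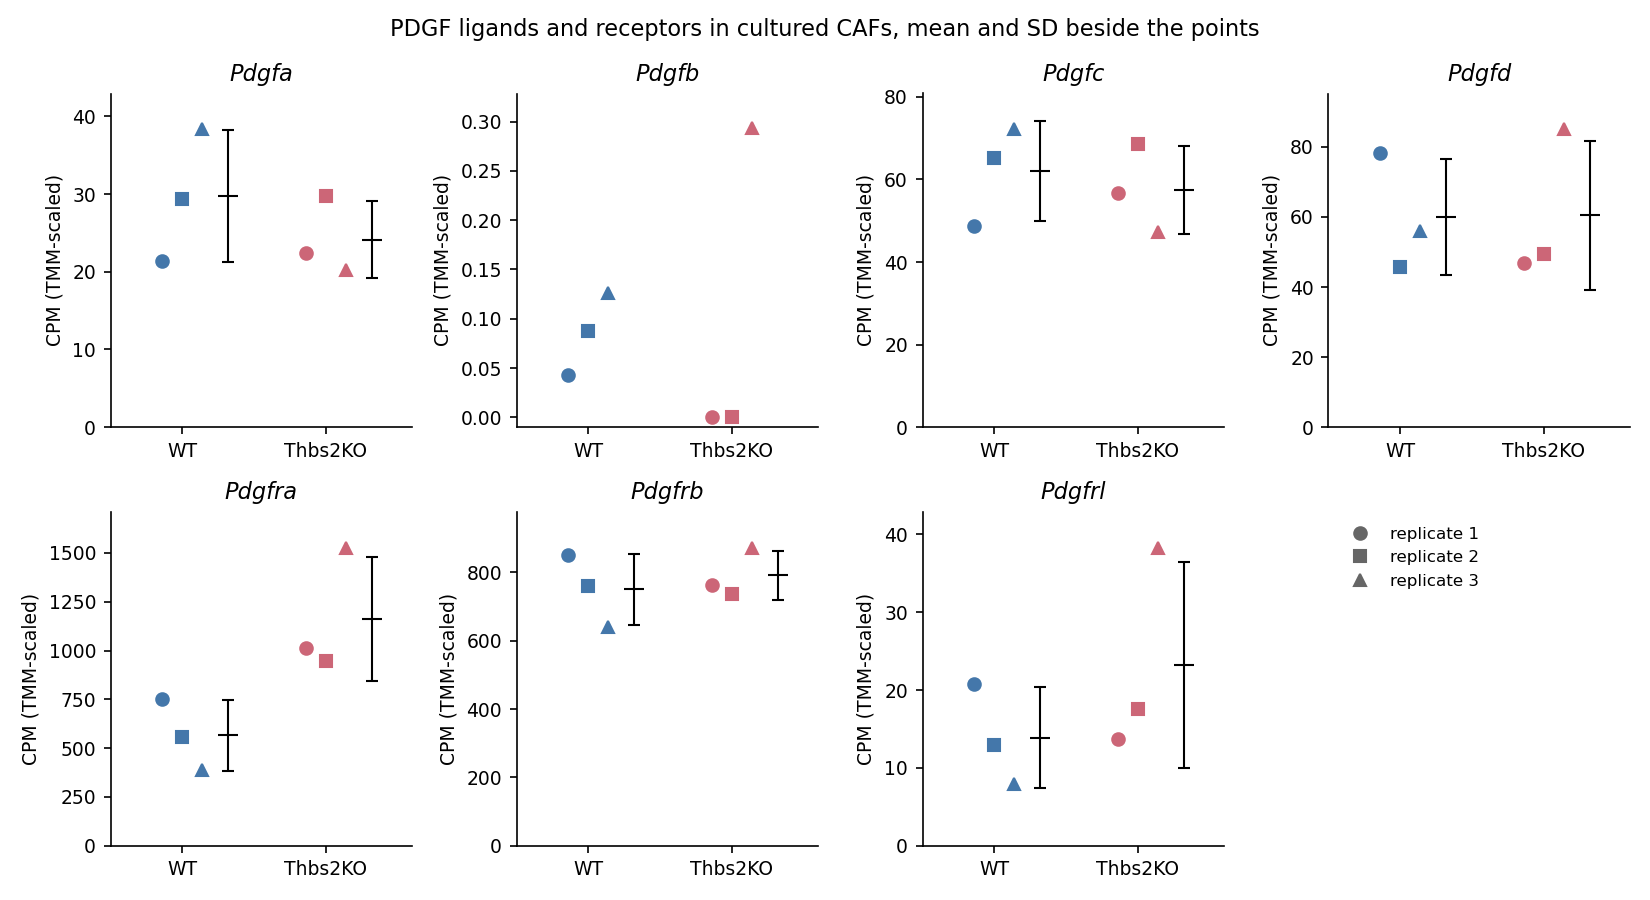
TMM-scaled CPM (y axis, from 0; a scale of its own for each gene) of the 7 genes in the 3 WT (blue) and 3 Thbs2KO (red) libraries, with mean and SD in black beside the points except for Pdgfb, which rests on 12 reads. The groups lie apart for Pdgfra, at 388 to 751 CPM in WT and 947 to 1527 CPM in Thbs2KO, and overlap for the other 6 genes.

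Among the ligands, Pdgfa (ENSMUSG00000025856.15, chromosome 5, 138976014 to 138997370, minus strand), which encodes the PDGF-A chain, measured 21.4, 29.4 and 38.3 CPM in WT and 22.5, 29.7 and 20.3 CPM in Thbs2KO. The highest library was WT replicate 3, and the other 5 spanned 20.3 to 29.7 CPM. Means were 29.7 ± 8.50 and 24.2 ± 4.93 CPM, with a log2 fold change of -0.30 (SE 0.239; edgeR, Benjamini-Hochberg adjusted p = 0.693). The log2 fold change of Pdgfa was -0.07 without WT replicate 3, -0.19 without Thbs2KO replicate 3, and -0.49 and -0.47 without WT replicate 1 and Thbs2KO replicate 2. The antisense gene 6330403L08Rik overlaps 813 of the 3119 exon bases of Pdgfa and had 1258 reads in all against 3579, so part of either count may belong to the other.

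Pdgfc (ENSMUSG00000028019.9, chromosome 3, 81036416 to 81214040, plus strand) encodes a ligand secreted in latent form, whose CUB domain is cleaved off before it binds PDGFRα. It measured 48.7, 65.3 and 72.2 CPM in WT and 56.8, 68.5 and 47.2 CPM in Thbs2KO. The ranges of the genotypes lay almost on top of each other, and the log2 fold change was -0.11 (SE 0.187; edgeR, Benjamini-Hochberg adjusted p = 0.878). The interval of 2 standard errors ran from -0.48 to 0.26.

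Pdgfd (ENSMUSG00000032006.15, chromosome 9, 6168584 to 6378850, plus strand), which encodes the other latent ligand and signals through PDGFRβ, measured 78.1, 45.7 and 56.0 CPM in WT and 47.0, 49.5 and 85.0 CPM in Thbs2KO. Its 2 high libraries were WT replicate 1 and Thbs2KO replicate 3, with the other 4 at 45.7 to 56.0 CPM. The means were 59.9 ± 16.6 and 60.5 ± 21.3 CPM, and the log2 fold change was 0.01 (SE 0.287; edgeR, Benjamini-Hochberg adjusted p = 0.993). The interval of 2 standard errors, -0.56 to 0.59, was the widest of the 3 tested ligands, so a Pdgfd difference inside it was not detectable here.

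Pdgfb (ENSMUSG00000000489.7, chromosome 15, 79995874 to 80014977, minus strand), a ligand gene known mainly from endothelial cells and platelets, was close to the detection limit. It had 1, 2 and 3 reads in the WT libraries and 0, 0 and 6 in the Thbs2KO libraries. Pooled over a group this was 0.0858 CPM in WT (95% exact Poisson interval 0.0315 to 0.187) and 0.0967 CPM in Thbs2KO (0.0355 to 0.211), intervals that cover counting error only. The reads of the Thbs2KO group all came from replicate 3, and the 0 reads of replicates 1 and 2 allow up to 0.142 and 0.147 CPM (3 reads). A difference between the genotypes was not detectable at this depth.

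Ordered per length over the 6 libraries, the means were 141 CPM per kb for Pdgfrb, 86.1 for Pdgfra, 19.1 for Pdgfd, 11.7 for Pdgfc, 8.63 for Pdgfa, 5.93 for Pdgfrl and 0.0220 for Pdgfb. The order was the same with the longest transcript as the length. Ranges of neighbours overlapped for Pdgfrb and Pdgfra, for Pdgfc and Pdgfa, and for Pdgfa and Pdgfrl. Even so, Pdgfc stood above Pdgfa in each of the 6 libraries and Pdgfa above Pdgfrl in 5, the exception being Thbs2KO replicate 3. Among 13584 tested genes with a length, Pdgfrb and Pdgfra ranked 281 and 482 from the top per length, and Pdgfa 4846. The summed receptor level was 3.52 to 5.58 times the summed ligand level in the WT libraries and 5.92 to 7.28 times in the Thbs2KO libraries.

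The summed ligand level per length was similar in the genotypes, 40.7 ± 3.77 CPM per kb in WT and 38.2 ± 4.79 in Thbs2KO (SD, n = 3). Its make-up differed between libraries within each genotype. Pdgfd made up 60.1% of it in WT replicate 1 and 63.0% in Thbs2KO replicate 3, and 39.4% to 44.8% in the other 4 libraries. Pdgfa and Pdgfc together took the rest, and each had its lowest share in the same 2 libraries, at 15.2% to 16.6% for Pdgfa and 21.7% to 23.2% for Pdgfc. These are the libraries that stood apart on the second principal component, 1 of each genotype, and the part of whatever sets them apart was not tested.

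**Figure D4:**
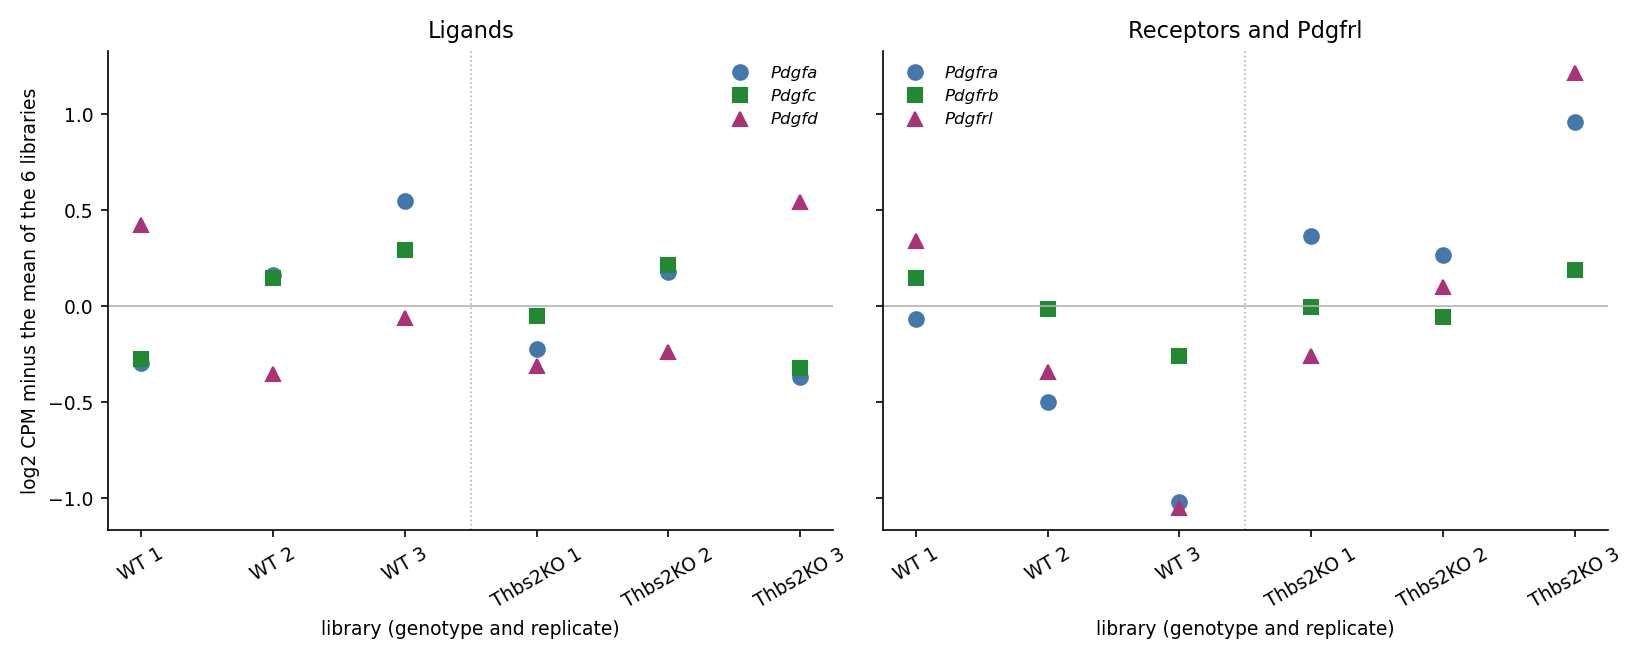
Log2 CPM of each tested member minus its mean over the 6 libraries (y axis), by library (x axis), ligands at left and receptor genes with Pdgfrl at right; the dotted line parts WT from Thbs2KO. Pdgfa and Pdgfc run together, Pdgfd is high in WT replicate 1 and Thbs2KO replicate 3, and all WT libraries lie below all Thbs2KO libraries for Pdgfra.

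As a description over the 6 libraries, likeness of pattern was taken as the root-mean-square difference between log2 CPM values centred on each gene's mean, where a smaller value means a closer pattern. Among the 15 pairs of tested members, Pdgfa and Pdgfc were the closest at 0.128, then Pdgfd and Pdgfrb at 0.284 and Pdgfra and Pdgfrl at 0.335. Pdgfa and Pdgfrl were the farthest apart at 0.977. Pdgfra differed from Pdgfrb by 0.533 on this measure, further than from its low-level relative Pdgfrl. Over 10472 other genes whose mean over the 6 libraries reached 5 CPM, genes close to Pdgfra included Thrb and Brinp1 at 0.131 and 0.137, against a median of 0.652. Thrb encodes a nuclear receptor for thyroid hormone. The closest to Pdgfrb were Armcx1, Amdhd2 and Cby1, at 0.0297 to 0.0365. For Pdgfrl they were Phyhd1, the microfibril gene Mfap2 and Ssc5d, at 0.202 to 0.220. Pdgfa was closest to Nhp2, Hivep3 and Pop4, Pdgfc to Nle1, Enkd1 and Nsun2, and Pdgfd to Lsp1, Sgce and Isg20, all at 0.0845 or less. The genes share their libraries, so such likeness is a description of these 6 libraries.

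The other genes of the pathway were taken from 8 lists of 121 symbols, of which 113 were tested. By edgeR 1 changed, Pcsk6, or 0.885% of them against 1.09% of all tested genes, and 23 had an unadjusted p under 0.05. The share with an unadjusted p under 0.05 was 20.4%, beside 13.3% of all tested genes. DESeq2 called 7, in a setting where it called 5.15% of all genes, and limma-voom 0. Without WT replicate 1 edgeR called 9, with 2.89% of all genes called. Without both that library and Thbs2KO replicate 3 it called 28, with 11.2% of all genes called. Without any other single library it called 0. The median log2 fold change was -0.06.

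Among 12 tested genes that process PDGFs, hold them in the matrix or serve as co-receptors, 1 fell and 0 rose. Pcsk6, a proprotein convertase of the family that trims the PDGF-A and PDGF-B propeptides, measured 31.9, 51.5 and 39.9 CPM in WT and 17.8, 20.1 and 15.5 CPM in Thbs2KO. The genotypes did not overlap, with all Thbs2KO values the lower. It fell by 1.21 on the log2 scale (SE 0.192; edgeR, Benjamini-Hochberg adjusted p = 0.0483). The call was close to the threshold and was made in 7 of 17 settings. It was lost with RLE scaling (edgeR, Benjamini-Hochberg adjusted p = 0.0504), with limma-voom (adjusted p = 0.0626) and with each library but WT replicate 1 left out (edgeR adjusted p = 0.0914 to 0.218). A stricter filter, the replicate block and the summed Thbs2KO replicates lost it too. The log2 fold change was negative in all 17 settings. Nrp2, a neuropilin co-receptor of growth factors, had means of 238 ± 18.9 and 166 ± 23.2 CPM in WT and Thbs2KO (edgeR, Benjamini-Hochberg adjusted p = 0.123). St14, the gene for a protease that can activate PDGF-D, was the member of this list with too few reads to test, and is named here after its values were seen.

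Of 14 tested relatives in the wider PDGF/VEGF family and its receptors, 0 passed the edgeR test. An unadjusted p under 0.05 was reached by 5, or 35.7% beside 13.3% of all tested genes, of which 1 was higher and 4 were lower. Vegfa, the main angiogenic relative of the PDGFs, measured 270.3, 364 and 363 CPM in WT and 238, 248 and 184 CPM in Thbs2KO. Csf1, the ligand of a receptor related to the PDGF receptors, had means of 1704 ± 348 and 1169.8 ± 49.1 CPM. For both the groups lay apart, and edgeR gave Benjamini-Hochberg adjusted p = 0.188 and 0.204, while DESeq2 called both lower.

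Inside the cell, 0 of 24 receptor-proximal adaptors, kinases and STATs changed by edgeR. Unadjusted p-values under 0.05 were found for 3 with higher and 3 with lower values, 25% of the list beside the same 13.3%, and the median log2 fold change was 0.08. Pik3r1, a regulatory subunit of PI 3-kinase, measured 86.8 ± 9.11 and 129 ± 30.5 CPM in WT and Thbs2KO, and DESeq2 called it higher. Rasa1, the RAS GTPase activator that docks on PDGFRβ, measured 122 ± 20.03 and 179.8 ± 35.8 CPM (edgeR, Benjamini-Hochberg adjusted p = 0.220 for Pik3r1 and 0.230 for Rasa1). Of 17 kinases and GTPases of the RAS-ERK and PI3K-AKT branches 0 changed by edgeR, and 3 (17.6%) had an unadjusted p under 0.05, 2 of them higher. Hras and Akt2 had log2 fold changes of -0.43 and 0.16.

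Of 17 tested negative regulators of receptor signalling 0 changed by edgeR, and 3 (17.6%, beside 13.3% of all tested genes) had an unadjusted p under 0.05, 1 of them higher. Spry2, a feedback inhibitor that growth factor signalling induces, measured 45.3, 40.1 and 28.9 CPM in WT and 63.5, 54.8 and 72.4 CPM in Thbs2KO. Its groups lay apart, with a log2 fold change of 0.74 (SE 0.184; edgeR, Benjamini-Hochberg adjusted p = 0.141), and DESeq2 called it higher. Ptprj, a receptor phosphatase that acts on PDGFRβ, had a log2 fold change of -0.44.

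Of 21 transcripts known to be induced by PDGF in fibroblasts, 0 changed by edgeR. An unadjusted p under 0.05 was reached by 3 (14.3%, near the 13.3% of all tested genes), all lower, and 16 had negative log2 fold changes (median -0.25). This lean to lower values was smaller without WT replicate 1 or without Thbs2KO replicate 3, and its cause was not tested. Without WT replicate 1 the median was -0.11, 11 of 21 were negative, and edgeR called 4 higher (Egr2, Egr3, Ccl2 and Ccl7) and 2 lower (Arid5b and Srf). The left-out library was the highest WT library for those 4 and the lowest for those 2, so these calls follow in part from leaving it out. With every library the log2 fold changes of Egr2, Egr3, Ccl2 and Ccl7 were -0.10, 0.78, -0.26 and 0.23, and edgeR called none of them. Without Thbs2KO replicate 3 the median was -0.09 and 13 of 21 were negative. Without both libraries the median was 0.17 and 8 were negative. In that fit, which called 11.2% of all genes and keeps only the most alike Thbs2KO pair, edgeR called 8 of the 21 higher and 3 lower. Arid5b and the transcription factor gene Srf had log2 fold changes of -0.68 and -0.40 (edgeR, Benjamini-Hochberg adjusted p = 0.196 and 0.248). DESeq2 called Arid5b lower. Serum induces many of these transcripts as well.

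In the gut, fibroblasts with high PDGFRα, called telocytes, and those with low PDGFRα, called trophocytes, are known by other genes. Of 7 genes of the first kind 3 were tested, 0 of them called by edgeR and 1, F3, at an unadjusted p under 0.05. The telocyte transcription factor gene Foxl1, named after its values were seen, stood at or below 0.947 CPM in the 6 libraries. F3, the tissue factor gene, measured 357 ± 83.0 and 233 ± 73.3 CPM, a log2 fold change of -0.62 (edgeR, Benjamini-Hochberg adjusted p = 0.371). Bmp5 had a log2 fold change of -0.45, and Wnt5a, given to complete the tested genes, had a log2 fold change of 0.10. Of the 5 trophocyte genes all were tested, and by edgeR 0 changed and 0 had an unadjusted p under 0.05. Grem1, the BMP antagonist of that kind of cell, measured 625, 354 and 208 CPM in WT and 651, 694 and 789 CPM in Thbs2KO, so that the groups lay apart by the narrow gap between 625 and 651 CPM (log2 fold change 0.85; edgeR, Benjamini-Hochberg adjusted p = 0.393). Ackr4 was at or below 1.71 CPM in every library. To complete the list, Ackr4, Pi16, Cd81 and Cd34 had log2 fold changes of 1.26, 0.85, -0.08 and -0.43. Of the 5 trophocyte genes 3 had positive and 2 negative log2 fold changes.

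**Figure D5:**
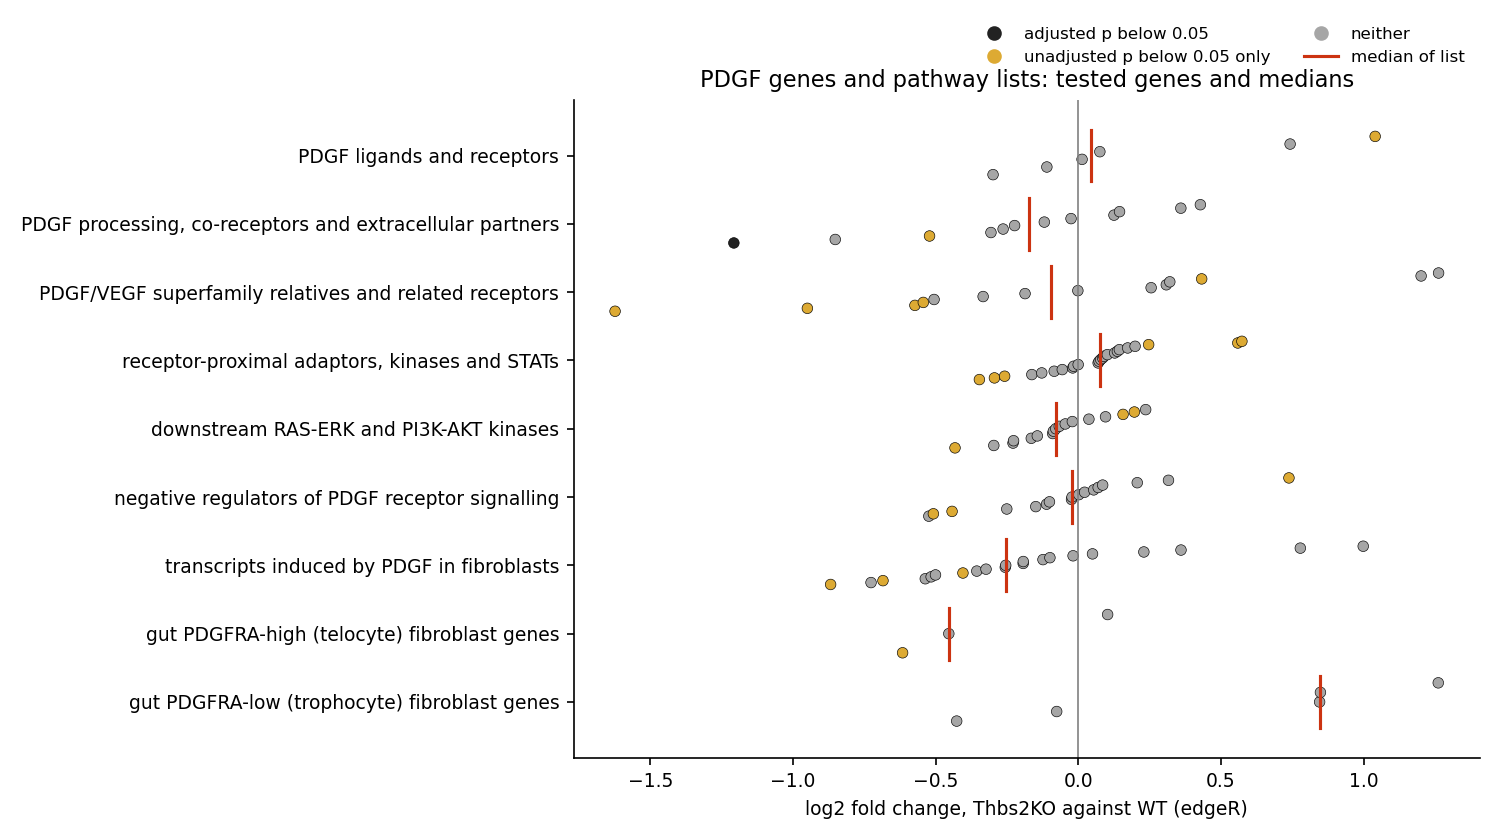
Log2 fold change (x axis, Thbs2KO against WT, edgeR) of each tested gene, by list (y axis), with the list's median as a red bar; dark points have an adjusted p below 0.05, yellow points only an unadjusted p below 0.05. Pcsk6 at -1.21 is the dark point, and Pdgfra at 1.04 is the yellow point of the PDGF genes.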

How the data were processed

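RNA-seq of 6 CAF libraries was used. The authors deposited expected counts per gene from RSEM, per the submitters' processing notes made after Trimmomatic 0.39 and STAR 2.7.3a on mm10; the annotation release is not given in the sources used here. From 3.8% to 3.88% of values per library were not whole, and all were rounded. RSEM divides reads that match several genes by an estimate.

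Genes passing filterByExpr (13590) were scaled with TMM and tested with edgeR 4.0.16 in R 4.3.3 (quasi-likelihood, robust, genotype as the only term; Benjamini-Hochberg over all tested genes, threshold 0.05). Standard errors come from the F statistic. DESeq2 1.42.0, limma 3.58.1 (voom), other scalings and filters, a replicate block, left-out libraries and Thbs2KO replicates 1 and 2 summed were alternatives. GENCODE M21 gave positions and lengths (99.53% of genes matched).

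The members and lists were chosen with earlier results of these data known. Named were the 7 members, up to 3 changed genes of each pathway list or otherwise the 2 with the smallest p, marker genes, and the 3 genes most like each member of at least 5 CPM, except that some results are not reported here; other choices are marked.

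Tested on simulated counts for Thbs2KO against WT over 13590 genes, edgeR recovered 37 out of 50 altered genes at a 2-fold size and 46 out of 50 at a 4-fold size, but 6 out of 50 at a 1.5-fold size, and called 13 unaltered ones. Altered genes were drawn only from those with a mean of at least 5 CPM. Each gene was simulated independently, without the shifts shared by many genes that set some real libraries apart, so recovery in these data may differ. The labels do not say if equal replicate numbers pair the samples. Correlations of deviations between same-numbered libraries were -0.292, 0.171 and -0.331, which cannot settle this with 3 libraries per group. Figures were drawn with matplotlib 3.10.9.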

Additional observations from a re-analysis of the deposited data

How the results depend on the processing

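The count of PDGF genes called was 0 in 15 of 16 alternatives and 1 with DESeq2, for Pdgfra (log2 fold change 1.05, DESeq2 adjusted p = 0.00507). Pdgfa, Pdgfra and Pdgfrl kept their sign in all 16 alternatives. Fold changes near 0 turned sign: Pdgfd to -0.00620 with limma-voom, -0.00252 with the replicate block, -0.0755 without both WT replicate 1 and Thbs2KO replicate 3, and -0.31 to 0.25 with 1 library left out. With 1 library left out Pdgfc ran from -0.26 (without WT replicate 1) to 0.0147 and Pdgfrb from -0.0262 to 0.17. The replicate block, whose pairing the labels do not state, left 30 genes of all tested and 0 of the pathway lists called. In that fit Thbs2 missed the threshold (log2 fold change -2.86, edgeR, Benjamini-Hochberg adjusted p = 0.0784). Genes called over all tested, 148 with every library, were 699 with DESeq2, 245 with no filter, 1519 without both WT replicate 1 and Thbs2KO replicate 3, 40 with Thbs2KO replicates 1 and 2 summed, and 38 (without Thbs2KO replicate 1) to 397 (without WT replicate 1) with 1 library left out. In the pathway lists, 1 with every library, they were 0 with RLE scaling, limma-voom, a stricter filter or the summed replicates, 7 with DESeq2, 28 without both libraries and 0 to 9 with 1 left out. The Pdgfra share of the receptor level differed by 13.0 to 17.4 percentage points with 1 library left out. Where a left-out library leaves fewer samples, that construction alone changes the test; other causes were not tested. Depth limits Pdgfb, and in simulated data most 1.5-fold changes were missed.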

Other observations

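Some transcripts that PDGF and serum induce varied widely among libraries of 1 genotype, and the genes given here were chosen after their values were seen. Egr1, an immediate early transcription factor gene, measured 305, 94.8 and 78.1 CPM in WT replicates 1, 2 and 3 and 228, 235 and 150.3 CPM in Thbs2KO replicates 1, 2 and 3. WT replicate 1 was thus the highest library of all and the other WT libraries the lowest. Fosb measured 23.0, 5.96 and 4.44 CPM in WT and 33.2, 30.6 and 2.84 CPM in Thbs2KO, with Thbs2KO replicate 3 below every WT library. Without WT replicate 1, edgeR called 9 genes of the pathway lists and 2.89% of all genes. The 9 were 4 higher (Egr2, Egr3, Ccl2 and Ccl7) and 5 lower (Pgf, Srf, Arid5b, Pcsk6 and Socs3). WT replicate 1 was the highest WT library for those 4 and the lowest for those 5. Leaving it out lowers the WT mean of the 4 and raises that of the 5 by construction. Without both WT replicate 1 and Thbs2KO replicate 3 it called 28, 15 higher and 13 lower, in a fit that called 11.2% of all genes and in which Thbs2KO keeps only its most alike pair of libraries. Egr1 and Fosb are among those 15, but they were chosen for how these libraries differ, so those calls are no test of them. With all libraries Egr1 and Fosb had adjusted p = 0.856 and 0.748 by edgeR with Benjamini-Hochberg adjustment. Pdgfra had similar log2 fold changes with and without the 2 libraries, 1.04 and 1.05. These were its highest WT and its highest Thbs2KO library, so by construction leaving each out moves its fold change in opposite directions. It was 1.30 without WT replicate 1 alone and 0.80 without Thbs2KO replicate 3 alone.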
